A study of Mus musculus with 2 samples.

Results

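Adipokines, the hormones that fat cells release, and the receptors for adiponectin were described across the cell types of young mouse visceral fat. The 10 genes were taken by name from the gene list of the count matrices, which held 56980 genes: Adipoq, Lep, Retn, Rbp4, Nampt and Rarres2, the adiponectin receptors Adipor1, Adipor2 and Cdh13, and the chemerin receptor Cmklr1. All 10 were found. The study sequenced nuclei of subcutaneous and visceral fat from young and old mice to follow fat depots through aging. Only its young visceral group was used here, which is labelled VAT young: gonadal fat of female C57BL/6J mice aged 2 months, with 1 library from each of 2 mice, called replicate 1 and replicate 2. Labels and methods differ on the assay, since sample labels name 10x Genomics and adipocytes while the methods name the GEXSCOPE kit of Singleron and nuclei of the whole tissue. The data below held nuclei of several cell types.

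Adiponectin, encoded by Adipoq, circulates as multimers of a collagen-like protein and is known to raise insulin sensitivity. Its receptors Adipor1 and Adipor2 are membrane proteins with ceramidase activity, and Cdh13 encodes T-cadherin, which is anchored in the membrane by a lipid and binds the large multimers. Leptin, resistin, retinol-binding protein, visfatin and chemerin are the other classic secreted products of fat, and they act on appetite, glucose use, retinoid transport, NAD synthesis and the movement of leukocytes.

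The deposited matrices held 7344 called nuclei in replicate 1 and 17148 in replicate 2. Nuclei with more than 500 genes, more than 1000 unique molecular identifiers (UMIs) and less than 15% of UMIs from mitochondrial genes numbered 2833 and 12225. These nuclei carried 8466237 UMIs in replicate 1 and 48068273 in replicate 2, with medians of 2221 and 2726 per nucleus. The libraries stood apart in RNA quality: the median mitochondrial share was 6.20% in replicate 1 and 0.621% in replicate 2, and barcodes not called as nuclei held 60.9% and 45.7% of all UMIs. The 2 libraries shared 85 called barcodes, of which 27 were among the nuclei kept. Levels are given as UMIs of a gene per 1000000 UMIs of all nuclei of a type in a library (CPM), with replicate 1 first. Intervals are exact 95% intervals and cover counting error only.

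Clusters were named from marker genes, with the 10 genes kept out of the clustering. Adipocyte-like nuclei numbered 1792 in replicate 1 and 6129 in replicate 2, and 8 of 9 adipocyte markers were highest in them. The others were fibro-adipogenic progenitor-like (FAP-like, 249 and 1295), mesothelial-like (387 and 2966), endothelial-like (130 and 555), smooth muscle-like (25 and 167) and immune-like (250 and 1113). In these types 7 of 8, 9 of 9, 13 of 14, 7 of 7 and 26 of 36 of their own markers were highest. All 9 adipocyte markers were also detected in every other type. Their summed level was 40054 and 52108 CPM in adipocyte-like nuclei, 14263 and 17248 in endothelial-like nuclei, and between 6121 and 13637 in the rest. The study itself named its adipocytes partly by Adipoq and Adipor2, which was not done here.

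Of the 10 genes, 7 were higher and 3 lower in adipocyte-like nuclei than in the mean of the other 5 types. Higher were the adipokine genes Adipoq, Lep, Retn, Rbp4 and Nampt and the receptor genes Adipor2 and Cmklr1. Lower were Rarres2, Adipor1 and Cdh13. All 10 passed the filter on low counts, and each moved in its direction in 2 of 2 libraries. Over all 15084 genes tested with edgeR's quasi-likelihood test, 29.5% were higher in adipocyte-like nuclei at a Benjamini-Hochberg adjusted p under 0.05 and 30.2% were lower. The median log2 fold change was 1.55 for the 10 genes and 0.00 for all genes. The fit scales libraries by TMM, which sets the adipocyte contrast of most of these genes above their unscaled CPM: in each library alone, without that scaling, the log2 difference of Adipoq was 0.93 to 1.09 where the fit gave 1.48.

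**Figure D1:**
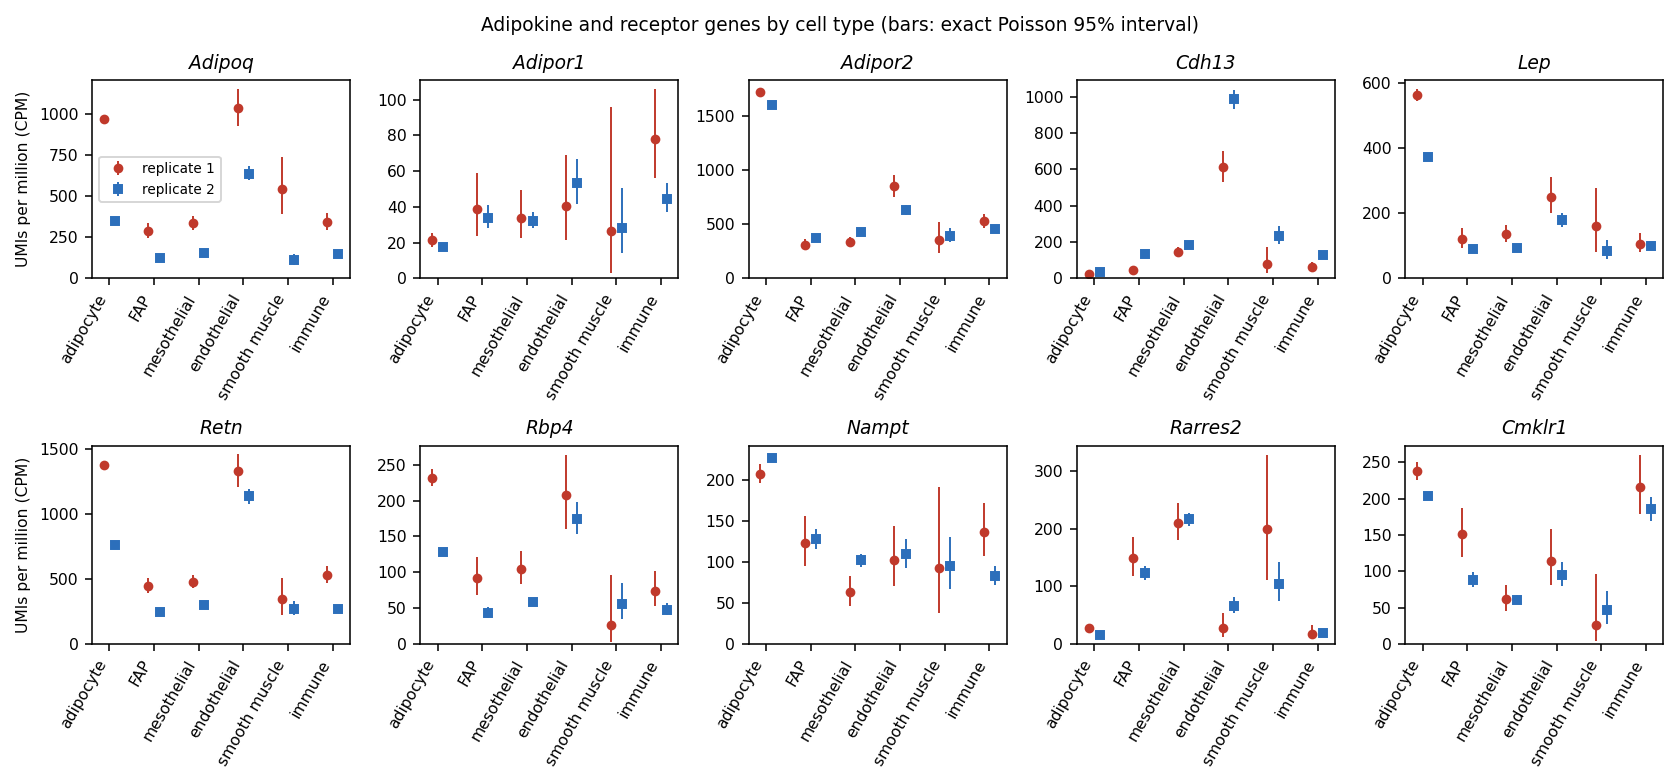
CPM (vertical axis) of the 10 genes in 6 cell types, 1 panel for each gene and 1 point for each library, with exact Poisson 95% intervals as bars. Adipor2 was highest in adipocyte-like nuclei at 1718 and 1602 CPM, Cdh13 in endothelial-like nuclei at 610.3 and 985 CPM, and Rarres2 in mesothelial-like nuclei at 211 and 217 CPM.

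The genes are spread over 7 chromosomes in the GRCm39 annotation of GENCODE. Adipoq (ENSMUSG00000022878) lies on chromosome 16 from 22964106 to 22976810. Chromosome 6 holds Lep (ENSMUSG00000059201, 29060216 to 29073877), Rarres2 (ENSMUSG00000009281, 48546630 to 48549762) and Adipor2 (ENSMUSG00000030168, 119330111 to 119394668). Chromosome 8 holds Retn (ENSMUSG00000012705, 3705324 to 3710689) and Cdh13 (ENSMUSG00000031841, 119010328 to 120051660). Adipor1 (ENSMUSG00000026457) lies on chromosome 1 from 134343077 to 134361092, Cmklr1 (ENSMUSG00000042190) on chromosome 5 from 113750358 to 113788509, Nampt (ENSMUSG00000020572) on chromosome 12 from 32869544 to 32903368, and Rbp4 (ENSMUSG00000024990) on chromosome 19 from 38105066 to 38113754. Their build differs from that of the promoter sequences given with Adipoq. Cdh13 spans 1041333 bases, of which 1.11% is exonic, while 93.3% of Rarres2 is exonic, and nuclear counts take in unspliced RNA. For this reason each gene is compared with itself across cell types and not with the other genes. On the opposite strand 7 of the 10 genes overlap another: Rbp4 and Rarres2 overlap the coding genes Ffar4 (222 bases) and Lrrc61 (1027 bases), Adipoq, Adipor2, Cdh13 and Cmklr1 overlap long non-coding RNAs (Gm59709 over 1381 bases, Gm56986 over 16788, several in Cdh13 of up to 13250, and Gm15736 over 1927), and Retn a pseudogene over 91 bases. Whether the counting used the strand is not stated, so UMIs from such an overlap cannot be told apart. Cdh13 also overlaps non-coding genes on its own strand, the longest Gm63757 over 8455 bases, which counting by strand would not separate.

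Adipoq encodes adiponectin. Adipocyte-like nuclei held 967 CPM (943 to 992) in replicate 1 and 347 CPM (341 to 353) in replicate 2, and endothelial-like nuclei held 1035 CPM (927 to 1152) and 637 CPM (596 to 681). In the other types the level lay between 287 and 545 CPM in replicate 1 and between 110 and 157 CPM in replicate 2. Adipoq was thus not highest in adipocyte-like nuclei in either library, and each type had more in replicate 1 than in replicate 2. The higher endothelial-like level rested on part of those nuclei, as described below. The adipocyte-like mean was 657 ± 439 CPM (SD, n = 2). Against the mean of the other types its log2 fold change was 1.48 ± 0.16 (SE; edgeR adjusted p = 1.3e-12, higher in 2 of 2 libraries). Between endothelial-like and adipocyte-like nuclei the fitted difference was 0.13 with an adjusted p of 0.692, so these neighbours in the order could not be separated. Adipocyte-like nuclei exceeded the next type, smooth muscle-like, by 1.86 (edgeR adjusted p = 4.5e-08, higher in 2 of 2 libraries), and no pair of neighbours among the 4 lower types passed.

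The share of adipocyte-like nuclei with an Adipoq UMI was 81.0% in replicate 1 and 68.7% in replicate 2, at median depths of 2736 and 4964 UMIs. FAP-like nuclei, which should lack the transcript, reached 26.5% and 17.8% at median depths of 1786 and 2078. With every nucleus thinned to 1000 UMIs the shares were 54.6% (52.2 to 56.9, Clopper-Pearson) and 27.4% (26.2 to 28.5) in adipocyte-like nuclei. They were 16.9% (12.4 to 22.1) and 7.18% (5.84 to 8.73) in FAP-like nuclei, and 46.9% (38.1 to 55.9) and 25.0% (21.5 to 28.9) in endothelial-like nuclei. At equal depth endothelial-like and adipocyte-like intervals thus overlapped in both libraries, and the FAP-like share was lower than either.

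The bases around the start of Adipoq, Lep and Retn are shown because these hormone genes were higher together in adipocyte-like nuclei. They come from RefSeq on GRCm38.p6 and run from 250 bases before the start to 50 after it, at chr16:23146286-23146585, chr6:29059971-29060270 and chr8:3655520-3655819, all on the plus strand. The promoter table used, taken from RefSeq, held 8 of the 10 genes and no entry for Cdh13 and Rarres2. Capitals mark matches on either strand to the motifs searched.
Adipoq: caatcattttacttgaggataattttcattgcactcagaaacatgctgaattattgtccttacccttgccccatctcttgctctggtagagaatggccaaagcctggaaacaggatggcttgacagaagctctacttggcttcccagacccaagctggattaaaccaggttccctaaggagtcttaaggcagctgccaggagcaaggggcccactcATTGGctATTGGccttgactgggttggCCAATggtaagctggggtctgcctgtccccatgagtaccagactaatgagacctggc
Lep: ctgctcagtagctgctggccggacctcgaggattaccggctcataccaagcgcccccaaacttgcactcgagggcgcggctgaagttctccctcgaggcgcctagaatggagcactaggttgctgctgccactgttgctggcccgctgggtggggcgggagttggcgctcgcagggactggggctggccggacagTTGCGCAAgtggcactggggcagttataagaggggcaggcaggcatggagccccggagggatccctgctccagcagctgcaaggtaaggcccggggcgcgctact
Retn: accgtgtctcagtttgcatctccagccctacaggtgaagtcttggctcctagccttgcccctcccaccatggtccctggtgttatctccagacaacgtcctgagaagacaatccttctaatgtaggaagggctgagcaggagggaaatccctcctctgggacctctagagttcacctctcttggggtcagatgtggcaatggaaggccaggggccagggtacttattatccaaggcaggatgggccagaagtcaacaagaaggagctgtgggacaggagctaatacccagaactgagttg

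Adipoq holds 3 matches to CCAAT, Lep 1 palindromic site that matches TTGCNNAA on both strands, and Retn none of the motifs searched. Over 32851 promoters of the same length, CCAAT occurred in 37.4%, TTGCNNAA in 10.8%, TATAAA in 13.6%, AGGTCA in 16.3% and CACGTG in 7.15%. Among the 8 promoters found, CCAAT occurred in 4, TTGCNNAA in 1, AGGTCA in 1 (Nampt), CACGTG in 1 (Cmklr1) and TATAAA in none. A match describes the letters and shows no binding, and a missing match says only that these letters are not in the window. The window of Adipoq was 50% G and C, that of Lep 66% and that of Retn 54%, beside a median of 52.7% over all promoters.

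Retn, which encodes resistin, followed Adipoq closely. It reached 1375 CPM (1346 to 1404) and 763 CPM (754 to 773) in adipocyte-like nuclei and 1332 CPM (1209 to 1464) and 1136 CPM (1080 to 1194) in endothelial-like nuclei. The other types lay between 346 and 532 CPM in replicate 1 and between 248 and 300.4 CPM in replicate 2. Retn in adipocyte-like nuclei was 1.64 ± 0.16 log2 units above the mean of the other types (edgeR adjusted p = 3.1e-14, higher in 2 of 2 libraries). Endothelial-like and adipocyte-like nuclei could not be separated for it (adjusted p = 0.757), with the order of the 2 types swapped between the libraries. Rbp4, the carrier of retinol in plasma, had the same types on top, with 232 CPM (220 to 244) and 128 CPM (125 to 132) in adipocyte-like and 208 CPM (161 to 264) and 174 CPM (153 to 198) in endothelial-like nuclei. Its adipocyte contrast was 1.57 ± 0.16 (edgeR adjusted p = 1.3e-12, higher in 2 of 2 libraries) and 0.97 without replicate 1, on unscaled CPM.

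Endothelial-like nuclei had more Adipoq, Retn, Rbp4 and Lep than the mean of the other types, and this rested on part of them. In that comparison 5 of the 10 genes were higher (Adipoq, Retn, Rbp4, Lep and Cdh13), where 9.97% of all genes were. Adipoq stood at 1.63 ± 0.16 (edgeR adjusted p = 4.4e-13, higher in 2 of 2 libraries), Retn at 1.51 (adjusted p = 7.7e-12) and Rbp4 at 1.33 (adjusted p = 9.4e-08). At a clustering resolution of 0.3 in place of 0.1, 501 of the 685 endothelial-like nuclei kept that name, and 184 (64 in replicate 1 and 120 in replicate 2) joined a cluster that the marker rule named mesothelial-like and that was led by Hba-a2 and Hbb-bs, which encode haemoglobin.

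The 184 nuclei carried Adipoq at 1900 and 1597 CPM, above the adipocyte-like level in both libraries, Retn at 2437 and 2890 CPM and Rbp4 at 475 and 441 CPM. Pecam1, an endothelial adhesion molecule, was at 61.6 and 153 CPM in them and Cdh13 at 61.6 and 168 CPM. The 501 other nuclei held Pecam1 at 1109 and 835 CPM, Cdh13 at 909 and 1351 CPM, Adipoq at 564 and 208 CPM, Retn at 732 and 351 CPM and Rbp4 at 62.2 and 54.9 CPM. The groups thus lay on opposite sides for the endothelial and the adipokine genes in both libraries. All 9 adipocyte markers were detected in the 184 nuclei, with a summed level of 21344 and 21371 CPM, led by Fasn at 6255 and 7611 CPM. In the 501 nuclei the sum was 10415 and 15404 CPM. The median mitochondrial share was 11.2% and 6.85% in the 184 nuclei and 6.22% and 0.857% in the 501.

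Without the 184 nuclei, a comparison chosen after seeing the data, adipocyte-like nuclei exceeded endothelial-like nuclei in Adipoq by 1.19 ± 0.20 log2 units (edgeR adjusted p = 5.0e-06, higher in 2 of 2 libraries). For Retn the difference was 1.45 ± 0.21 (adjusted p = 9.4e-08) and for Rbp4 1.88 ± 0.28 (adjusted p = 2.0e-07). The contrast of endothelial-like nuclei with the mean of the other types then fell to 0.28 for Adipoq (adjusted p = 0.363), to 0.13 for Retn (adjusted p = 0.745) and to -0.38 for Rbp4 (adjusted p = 0.443). With a mitochondrial limit of 5% in place of 15% the values were 0.53 (adjusted p = 0.370), 0.25 (adjusted p = 0.865) and 0.15 (adjusted p = 0.947). A smaller group of 80 endothelial-like nuclei with lymphatic markers held Adipoq at 166 and 143 CPM and Retn at 128 and 98.8 CPM. What the 184 nuclei are was not tested.

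Lep, which encodes the satiety hormone leptin, was highest in adipocyte-like nuclei in both libraries. They held 562 CPM (544 to 581) and 372 CPM (365 to 378), endothelial-like nuclei 251 CPM (199 to 312) in replicate 1 and 178 CPM (156 to 202) in replicate 2, while 84.4 to 159 CPM were found elsewhere. Its adipocyte contrast was 2.34 ± 0.14 (edgeR adjusted p = 4.8e-22, higher in 2 of 2 libraries), and the difference from the next type was 1.50 (adjusted p = 4.6e-08). Endothelial-like nuclei exceeded smooth muscle-like nuclei by 1.11 (adjusted p = 0.00666), and no later pair of neighbours passed. Without the 184 nuclei described above, the difference between adipocyte-like and endothelial-like nuclei was 2.40 (edgeR adjusted p = 1.5e-12, higher in 2 of 2 libraries), and the endothelial contrast of Lep, 0.54 (adjusted p = 0.0318) with them, was -0.39 (adjusted p = 0.256). Thinned to 1000 UMIs, 38.0% (35.7 to 40.3) and 27.6% (26.5 to 28.7) of adipocyte-like nuclei had a Lep UMI, against 7.60% (4.64 to 11.6) and 7.01% (5.58 to 8.67) of immune-like nuclei, which should lack it. Unthinned, the shares were 64.9% and 66.7% against 13.6% and 12.4%, with median immune-like depths of 1624.5 and 1864 UMIs.

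Nampt encodes visfatin, the rate-limiting enzyme of NAD salvage, and is active in most cells. It reached 208 CPM (197 to 219) and 227 CPM (222 to 232) in adipocyte-like nuclei, the steadiest level between the libraries apart from that of Adipor2, with a mean of 218 ± 13.6 CPM (SD, n = 2). FAP-like nuclei held 123 and 128 CPM, immune-like nuclei 137 and 83.1 CPM, endothelial-like nuclei 102 and 109 CPM, and the remaining types between 63.1 and 102 CPM. The adipocyte contrast was 1.54 ± 0.16 (edgeR adjusted p = 1.6e-12, higher in 2 of 2 libraries). Adipocyte-like nuclei also exceeded FAP-like nuclei, the next in order, by 1.15 (adjusted p = 3.6e-05), and no other pair of neighbours passed.

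Rarres2 encodes prochemerin, a chemoattractant that proteases activate, and it was the adipokine gene that was lower in adipocytes. Mesothelial-like nuclei held 211 CPM (180 to 245) and 217 CPM (205 to 228), smooth muscle-like nuclei 199 CPM (112 to 329) and 105 CPM (75.2 to 142), and FAP-like nuclei 149 CPM (118 to 185) and 123 CPM (112 to 136). Endothelial-like nuclei held 27.9 and 66.4 CPM, adipocyte-like nuclei 27.2 CPM (23.3 to 31.7) and 15.1 CPM (13.8 to 16.4), and immune-like nuclei 17.1 and 19.2 CPM. The first 3 types were thus above the rest in both libraries. Rarres2 alone of the 10 genes was higher in mesothelial-like nuclei, by 1.87 ± 0.18 (edgeR adjusted p = 7.2e-14, higher in 2 of 2 libraries), where 19.1% of all genes were. The adipocyte contrast was -1.60 ± 0.22 (edgeR adjusted p = 3.3e-09, lower in 2 of 2 libraries), and -2.44 without replicate 1, on unscaled CPM. Mesothelial-like and smooth muscle-like nuclei could not be separated (adjusted p = 0.136), nor could adipocyte-like and immune-like nuclei (adjusted p = 0.152). Thinned, 11.1% (8.16 to 14.7) and 16.5% (15.1 to 17.8) of mesothelial-like nuclei had a Rarres2 UMI, against 1.60% (0.438 to 4.05) and 1.80% (1.10 to 2.76) of immune-like nuclei.

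Within the mesothelial-like nuclei Rarres2 fell on one subcluster. Subcluster 1, with 1802 nuclei, held it at 343 and 319 CPM. Subcluster 2, with 1551 nuclei, held it at 52.7 and 91.2 CPM, with Adipoq at 496 and 230 CPM, and at least 7 of 9 adipocyte markers were higher in it, summed over its nuclei, than in subcluster 1. With the adipocyte-marked subclusters of mesothelial-like, FAP-like and immune-like nuclei left out, a choice made after seeing the data, the mesothelial contrast of Rarres2 rose to 2.68 (edgeR adjusted p = 1.4e-21, higher in 2 of 2 libraries).

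Among the adiponectin receptors, Adipor2 was the one of adipocytes. Adipocyte-like nuclei held 1718 CPM (1685 to 1750) and 1602 CPM (1588 to 1615), a ratio of 1.07 between the libraries where that of Adipoq was 2.79. Endothelial-like nuclei held 849 and 629 CPM, immune-like nuclei 528 and 455 CPM, and the others between 311 and 426 CPM. No other type overlapped the adipocyte-like level in either library. The contrast was 2.34 ± 0.15 (edgeR adjusted p = 3.5e-21, higher in 2 of 2 libraries), and adipocyte-like nuclei exceeded endothelial-like nuclei by 1.57 (adjusted p = 6.6e-08), which exceeded immune-like nuclei by 0.63 (adjusted p = 0.0442). Leaving out the adipocyte-marked subclusters, a choice made after seeing the data, raised the contrasts of Adipor2 and Lep to 2.96 and 3.04. Those subclusters were picked for adipocyte markers, so a rise was built into the choice and is no test. Removing the 6% of nuclei with the highest doublet scores gave 2.96 and 2.95. Thinned, 73.9% (71.8 to 76.0) and 71.3% (70.1 to 72.4) of adipocyte-like nuclei had an Adipor2 UMI, against 21.7% (16.7 to 27.3) and 17.4% (15.3 to 19.5) of FAP-like nuclei.

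Adipor1, the receptor usually named for muscle, was sparse in every type. Immune-like nuclei held 77.9 CPM (55.9 to 106) and 44.6 CPM (36.9 to 53.5), endothelial-like nuclei 40.3 and 53.2 CPM, FAP-like nuclei 38.6 and 34.0 CPM, mesothelial-like nuclei 34.1 and 32.4 CPM, and smooth muscle-like nuclei 26.6 and 28.1 CPM. Adipocyte-like nuclei were lowest in both libraries, at 21.3 CPM (17.8 to 25.2) and 17.5 CPM (16.1 to 19.0). The adipocyte contrast was -0.61 ± 0.24 (edgeR adjusted p = 0.0228, lower in 2 of 2 libraries). It did not pass with 15 principal components (-0.26), a mitochondrial limit of 5% (-0.42), no filter on low counts (-0.26) or no library block (-0.57), at adjusted p of 0.364, 0.349, 0.684 and 0.137. Adipor1 and Cmklr1 were the genes higher in immune-like nuclei, where 13.4% of all genes were, and the contrast of Adipor1 there was 0.73 ± 0.25 (edgeR adjusted p = 0.0253, higher in 2 of 2 libraries). That call was lost at resolution 0.3 (0.33), with the 5% limit (0.23), with no filter (0.66) and with no block (0.85), at adjusted p of 0.272, 0.871, 0.123 and 0.0777. At resolution 0.3 the immune-like type was a larger set, with 397 and 1949 nuclei in place of 250 and 1113. It then held a cluster of 981 nuclei led by Ttn and Chl1. No pair of neighbours in the order of Adipor1 passed.

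Cdh13, which encodes T-cadherin, was highest in endothelial-like and lowest in adipocyte-like nuclei. The level was 610.3 CPM (528 to 702) and 985 CPM (933 to 1039) in endothelial-like nuclei and 24.3 CPM (20.6 to 28.5) and 37.5 CPM (35.4 to 39.6) in adipocyte-like nuclei. The ratio of the 2 types was 25.1 in replicate 1 and 26.3 in replicate 2. Mesothelial-like nuclei held 144 and 186 CPM, smooth muscle-like nuclei 79.7 and 235 CPM, immune-like nuclei 64.6 and 128 CPM, and FAP-like nuclei 44.1 and 132 CPM. Every type had more Cdh13 in replicate 2, the reverse of Adipoq. Its endothelial contrast was 3.07 ± 0.16 (edgeR adjusted p = 3.2e-26, higher in 2 of 2 libraries) and its adipocyte contrast -2.08 ± 0.20 (adjusted p = 6.3e-14, lower in 2 of 2 libraries). Endothelial-like nuclei exceeded mesothelial-like nuclei by 2.41 (adjusted p = 4.2e-13), and adipocyte-like nuclei fell short of FAP-like nuclei by 1.16 (adjusted p = 7.1e-05). Thinned, 30.8% (23.0 to 39.5) and 52.1% (47.8 to 56.3) of endothelial-like nuclei had a Cdh13 UMI, against 2.46% (1.79 to 3.28) and 5.51% (4.96 to 6.12) of adipocyte-like nuclei. The lymphatic group of 80 nuclei held it at 689 and 571 CPM.

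Cmklr1, the signalling receptor of chemerin, was shared by adipocyte-like and immune-like nuclei. The first held 238 CPM (226 to 251) and 204 CPM (199 to 209) and the second 217 CPM (179 to 260.1) and 185 CPM (169 to 203), so that counting intervals overlapped in both libraries. FAP-like nuclei held 151 and 88.3 CPM, endothelial-like nuclei 115 and 94.8 CPM, mesothelial-like nuclei 61.8 and 61.0 CPM, and smooth muscle-like nuclei 26.6 and 46.0 CPM. The adipocyte contrast was 1.70 ± 0.16 (edgeR adjusted p = 2.2e-14, higher in 2 of 2 libraries) and the immune contrast 1.00 ± 0.18 (adjusted p = 7.1e-06, higher in 2 of 2 libraries). After TMM scaling adipocyte-like nuclei exceeded immune-like nuclei by 0.59 (adjusted p = 0.0208), and these exceeded FAP-like nuclei by 0.73 (adjusted p = 0.0155).

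Cmklr1 varied among the 6 immune-like subclusters, which were not tested against each other. Subcluster 1, with macrophage markers and 784 nuclei, held 217 and 220 CPM. Subcluster 5, which the marker rule left unnamed, was led by Saa3 and Prg4 and had 58 nuclei with 456 and 405 CPM, at a median mitochondrial share of 10.3% and 5.61%. Subcluster 3, the adipocyte-marked one, held 270.3 and 215 CPM, and subcluster 2, with dendritic markers, 79.7 and 48.6 CPM. Subcluster 4, with T and NK markers, had 0 UMIs in 14 nuclei (0 to 175 CPM) and 19.0 CPM (3.92 to 55.6) in 101 nuclei, and subcluster 6, which was unnamed, 0 UMIs in 8 nuclei (0 to 252 CPM) and 87.0 CPM (28.3 to 203) in 27 nuclei. The ligand gene Rarres2 and the receptor gene Cmklr1 were thus high in mostly different types. Rarres2 was high in mesothelial-like, smooth muscle-like and FAP-like nuclei and Cmklr1 in adipocyte-like and immune-like nuclei. FAP-like nuclei also held Cmklr1, at 151 and 88.3 CPM.

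Free RNA of adipocytes was read from 14 reference genes known from adipocytes, such as Plin1, Cidec and Car3. For each gene the CPM of a type was divided by the adipocyte-like CPM of the same library, and a member counted as above this reference where its ratio exceeded that of every reference gene in both libraries. The median reference ratio lay between 0.257 and 0.310 in 4 of the other types, and was 0.627 and 0.566 in endothelial-like nuclei. Across the 50 pairs of gene and type, 17 were above the reference, 25 within its range and 8 mixed. At least 1 type was above it for 6 genes: Adipor1, Cdh13, Rbp4, Nampt, Rarres2 and Cmklr1. For Rarres2, Cdh13 and Adipor1, which were lower in adipocyte-like nuclei, the ratio restates that contrast, so their 12 pairs above the reference are no test of free RNA. This leaves 5 pairs of 3 genes, Cmklr1, Nampt and Rbp4. Free RNA of the other types was not measured by this ratio. Lep, with ratios of 0.189 to 0.479, and Adipor2, with ratios of 0.181 to 0.494, stayed within the range in all 5 types.

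**Figure D2:**
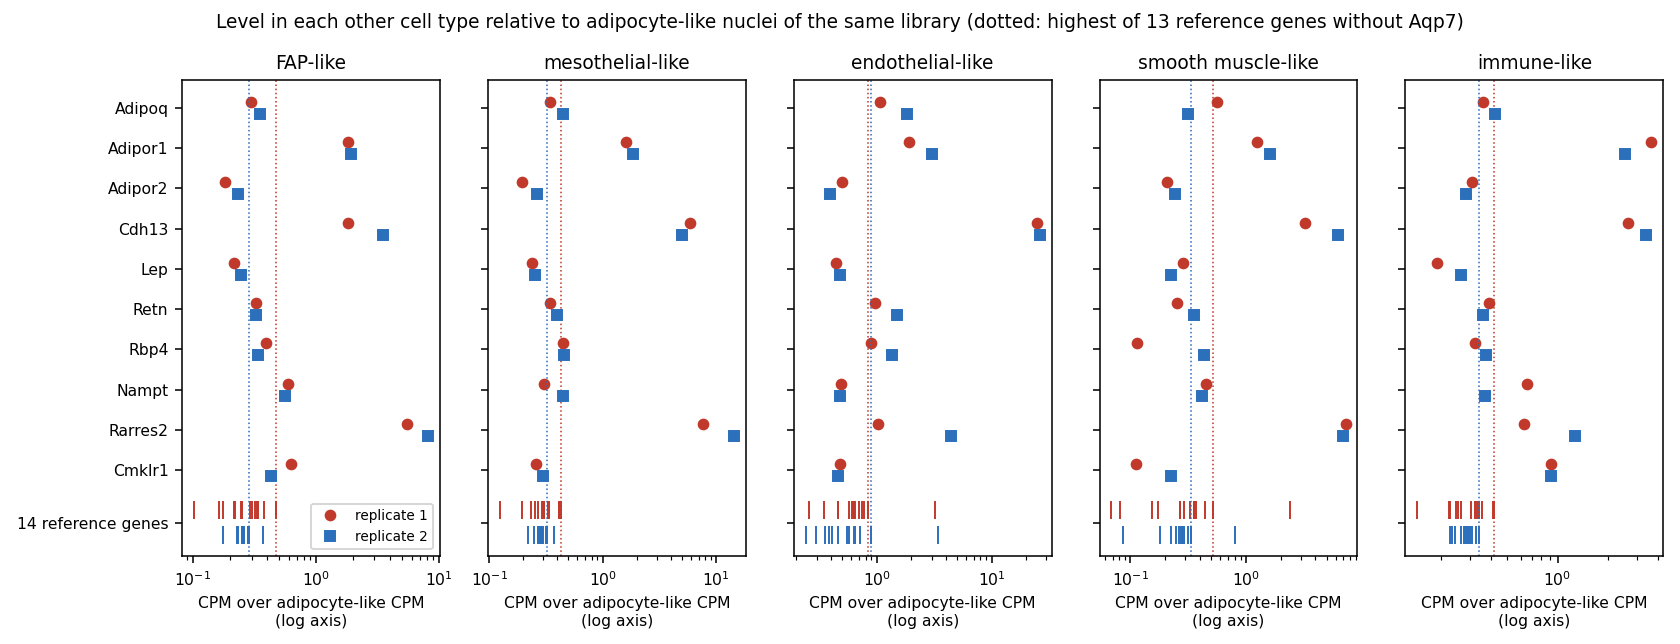
Ratio of the CPM in each other type to the adipocyte-like CPM of the same library (horizontal log axis) for the 10 genes and, as ticks, the 14 reference genes, with a dotted line at the highest reference gene other than Aqp7. Rarres2 lies to the right of the reference genes in mesothelial-like nuclei at 7.73 and 14.4, and Lep lies among them in every type.

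The ratios of Rarres2 were 7.73 and 14.4 in mesothelial-like, 7.32 and 6.96 in smooth muscle-like, 5.47 and 8.20 in FAP-like and 0.628 and 1.28 in immune-like nuclei. Those of Cmklr1 were 0.908 and 0.909 in immune-like and 0.633 and 0.433 in FAP-like nuclei. Nampt stood at 0.593 and 0.562 in FAP-like and at 0.658 and 0.366 in immune-like nuclei, where the highest reference ratios were 0.473 and 0.371, and 0.416 and 0.340. Rbp4 was above it only in mesothelial-like nuclei and by a narrow margin, at 0.452 and 0.454 beside reference tops of 0.429 and 0.374. That call was lost with a limit of 2 times the median reference gene, with nuclei thinned to 1000 UMIs and with the adipocyte-marked subclusters left out. Nampt in immune-like nuclei was lost with the limit of 2 times the median, with thinning and at resolution 0.3, and Cmklr1 in FAP-like nuclei with that limit and at resolution 0.3. The immune-like type at resolution 0.3 was the larger set described with Adipor1. Cmklr1 in immune-like and Nampt in FAP-like nuclei were above the reference in every alternative run.

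In endothelial-like nuclei the ratio of Adipoq was 1.07 and 1.84, that of Retn 0.969 and 1.49 and that of Rbp4 0.896 and 1.36. These lay within the reference range only because Aqp7, a glycerol channel, reached 3.19 and 3.41 there. With Aqp7 left out, a choice made after seeing the data, the top was 0.841 and 0.900, and Adipoq and Retn joined the genes above it, which made 8. With the 184 nuclei left out and Aqp7 kept, the count was 6, without Adipoq and Retn. With both left out, again a choice made after seeing the data, the ratio was 0.583 and 0.5995 for Adipoq and 0.532 and 0.460 for Retn, beside a top of 0.473 and 0.386, so that these genes were still above the reference and the count was 8. Rbp4, at 0.268 and 0.427 in these nuclei, was not above it in both libraries. Outside endothelial-like nuclei, Adipoq was above the full reference in mesothelial-like nuclei with the 5% mitochondrial limit. Without replicate 1, Adipoq and Retn were above it in mesothelial-like and immune-like nuclei.

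Called barcodes with at most 500 genes, 2260 in replicate 1 and 2160 in replicate 2, gave a second measure. Their median was 635 and 567 UMIs, beside 7 and 9 in barcodes not called. They can thus hold nuclei of low content as well as free RNA, which were not told apart. Adipoq was at 470.03 and 175 CPM in them, Retn at 827 and 320 CPM, Lep at 136 and 126 CPM and Adipor2 at 521 and 421 CPM. For Retn, adipocyte-like nuclei and, of the other types, only endothelial-like nuclei were above these levels in both libraries. Rarres2 was at 50.2 and 45.1 CPM in such barcodes, above the immune-like 17.1 and 19.2 CPM. Cdh13 was at 198 and 410 CPM, above every type but endothelial-like nuclei in both libraries. Cmklr1 was at 103 and 75.7 CPM, below the immune-like and FAP-like levels, and Rbp4 at 118 and 58.0 CPM, beside 105 and 58.3 CPM in mesothelial-like nuclei. Adipor1 was at 28.4 and 33.0 CPM, which in replicate 2 was above the mesothelial-like 32.4 CPM, and Nampt at 74.7 and 87.0 CPM, which in replicate 2 was above the immune-like 83.1 CPM. Of the 17 pairs above the reference, 8 were thus not above the low-content barcodes in both libraries. Of the 5 pairs of genes higher in adipocyte-like nuclei, 3 were: Cmklr1 in immune-like nuclei, Nampt in FAP-like nuclei, and Cmklr1 in FAP-like nuclei, whose call above the reference was lost in the 2 alternatives named.

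Levels of some adipokines moved with the mitochondrial share of the nucleus. Adipocyte-like nuclei were split into those with less than 1%, 1 to 5% and 5 to 15% of mitochondrial UMIs, with 34, 839 and 919 nuclei in replicate 1 and 5247, 847 and 35 in replicate 2. Adipoq stood at 432, 774 and 1161 CPM in replicate 1 and at 319, 569.7 and 1639 CPM in replicate 2. The top bin was 2.69 and 5.13 times the bottom bin for Adipoq, 1.56 and 3.23 times for Retn, and 1.97 and 3.52 times for Rbp4. These 3 genes had higher levels in each higher bin of both libraries. Rarres2 and Cdh13 had too few UMIs in some bins for their order to be read, with 3 UMIs each in the lowest bin of replicate 1 and 4 and 11 in the top bin of replicate 2.

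Lep, Adipor2 and Nampt did not rise through the bins in either library. Adipor1 rose through the bins in replicate 2 only, with top over bottom ratios of 0.564 and 3.94. It had 6 UMIs in the lowest bin of replicate 1 and 7 in the top bin of replicate 2. Cmklr1 rose in replicate 1 only, with ratios of 1.29 and 0.967. Lep went from 574 to 540.3 CPM in replicate 1 and from 374 to 292 CPM in replicate 2, and Adipor2 from 1828 to 1625 CPM and from 1626 to 1140.1 CPM. Within a bin the libraries stood closer for Adipoq: below 1% they held 432 and 319 CPM, where all adipocyte-like nuclei held 967 and 347 CPM. Over all adipocyte-like nuclei the ratio of replicate 1 to replicate 2 was 2.79 for Adipoq, 1.80 for Retn and for Rbp4, 1.81 for Rarres2, 1.51 for Lep and 1.07 for Adipor2. It was below 1 for Nampt, at 0.915, and for Cdh13, at 0.650. The part of RNA quality in these differences was not tested, and the mouse, the library and the mitochondrial share cannot be told apart.

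**Figure D3:**
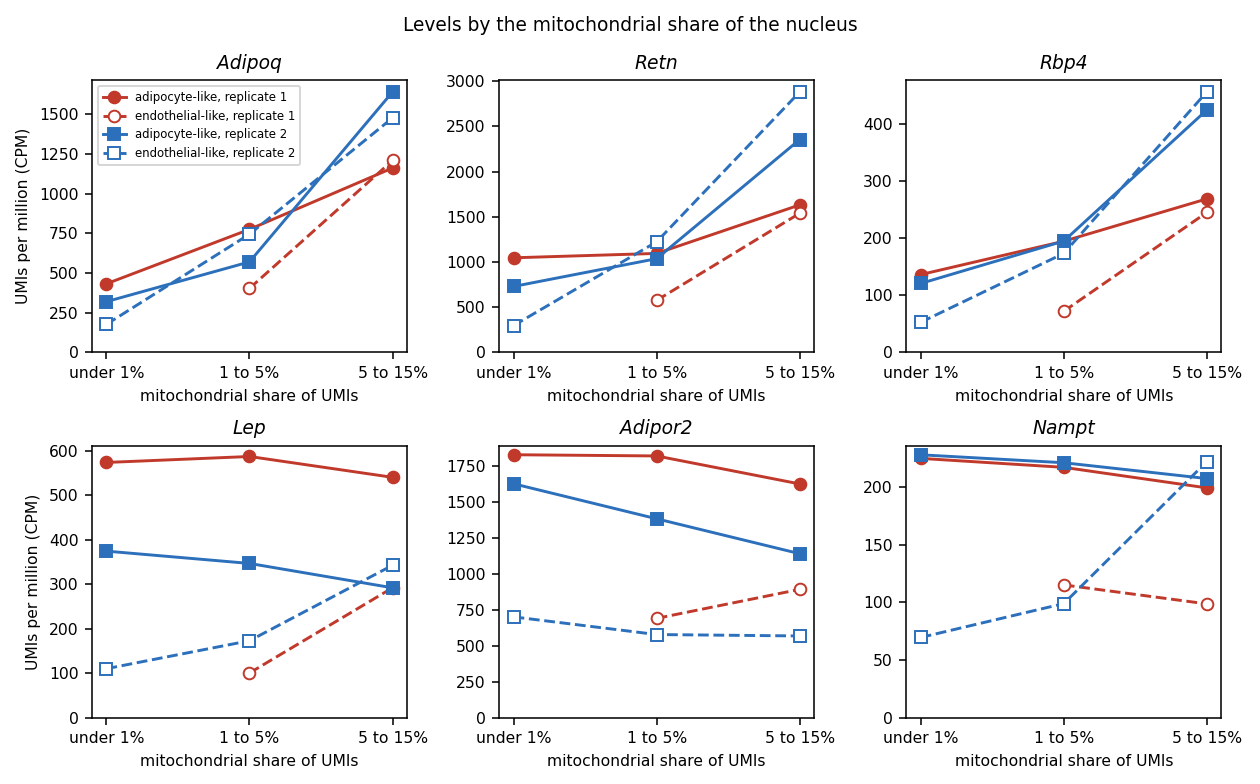
CPM (vertical axis) of 6 adipokine and receptor genes in nuclei grouped by the mitochondrial share of their UMIs, with filled points and solid lines for adipocyte-like and open points and dashed lines for endothelial-like nuclei of each library. Adipoq in adipocyte-like nuclei of replicate 2 goes from 319 to 1639 CPM, while Lep goes from 374 to 292 CPM.

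The endothelial level of Adipoq moved in the same way. In replicate 2 it was 177, 744 and 1476 CPM in the 254, 213 and 88 endothelial-like nuclei of these bins. In replicate 1, with no endothelial-like nucleus below 1%, it was 403 CPM in 22 nuclei and 1208 CPM in 108. Relative to adipocyte-like nuclei of the same bin the ratio was 0.553, 1.31 and 0.900 in replicate 2. The highest of 13 reference genes, without Aqp7, stood at 0.397, 0.939 and 1.42. In replicate 1 the ratio of Adipoq was 0.520 and 1.04 in the upper bins and that reference 0.560 and 1.12. Cdh13 in endothelial-like nuclei went the other way, from 1411 to 879 and 226 CPM in replicate 2 and from 949.8 to 517 CPM in replicate 1. These bins differ in the nuclei they hold. The 184 nuclei described above, high in Adipoq and low in Cdh13, had median mitochondrial shares of 11.2% and 6.85%. In the 501 others the medians were 6.22% and 0.857%. The part of this mix in the rise of Adipoq and the fall of Cdh13 was not tested.

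Adipocyte-like nuclei fell into subcluster 1 (1626 and 5400 nuclei) and subcluster 2 (161 and 716 nuclei), besides 18 nuclei too few to test. Subcluster 2 was led by Ucp1, the mitochondrial uncoupling protein, Cidea and Dio2, genes known from brown and beige fat. Between these subclusters 7 of the 10 genes differed, where 10.3% of 15154 genes did. Adipoq, Lep, Retn, Rbp4, Cmklr1 and Cdh13 were higher in subcluster 1 and Nampt in subcluster 2. Each held the same direction in 2 of 2 libraries. The fit has 4 sums and 1 residual degree of freedom, and the median depth was 2585 and 4653.5 UMIs in subcluster 1 and 4101 and 7103 in subcluster 2. The median mitochondrial share was 5.17% and 0.316% in subcluster 1 and 5.25% and 0.269% in subcluster 2, lower in subcluster 2 in replicate 2 only. The part of depth and of this share in the differences was not tested.

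Cmklr1 differed most, with 256 and 226 CPM in subcluster 1 and 110 and 84.6 CPM in subcluster 2, a log2 fold change of 1.29 ± 0.16 (edgeR adjusted p = 8.4e-14). Nampt went the other way, with 191 and 207 CPM against 329 and 338 CPM, or -0.78 ± 0.15 (edgeR adjusted p = 4.0e-06). Adipoq held 1024 and 366 CPM against 568 and 241 CPM, a difference of 0.68 ± 0.14 (edgeR adjusted p = 5.3e-05). Lep held 587 and 395 CPM against 384 and 248 CPM (0.60, adjusted p = 0.000674). Adjusted p lay nearer the threshold for Cdh13 (0.73, adjusted p = 0.0229), Rbp4 (0.48, adjusted p = 0.0228) and Retn (0.42, adjusted p = 0.0317). Adipor2, at 1711 and 1623 CPM against 1761 and 1492 CPM, had a fitted difference of 0.00 (adjusted p = 0.997), and Adipor1 and Rarres2 did not pass either. With DESeq2, with high doublet scores removed, with the 5% mitochondrial limit or with no filter, 4 genes (Adipoq, Lep, Nampt and Cmklr1) passed, and with 15 components Cdh13 passed as well. Without the library block edgeR called 0 of the 10 genes, 58 of all 15154 at an adjusted p under 0.05 and 1130 at an unadjusted p under 0.05. Resolution 0.3 and no integration did not test the same split. At resolution 0.3 the nuclei led by Cidea and Ucp1, 932 in all, formed a cluster of their own outside the adipocyte-like type, and 6 genes, not including Adipoq, passed in 4 other subclusters. Without integration there were 3 subclusters, one led by mitochondrial genes, and 3 genes (Adipoq, Cdh13 and Cmklr1) passed.

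**Figure D4:**
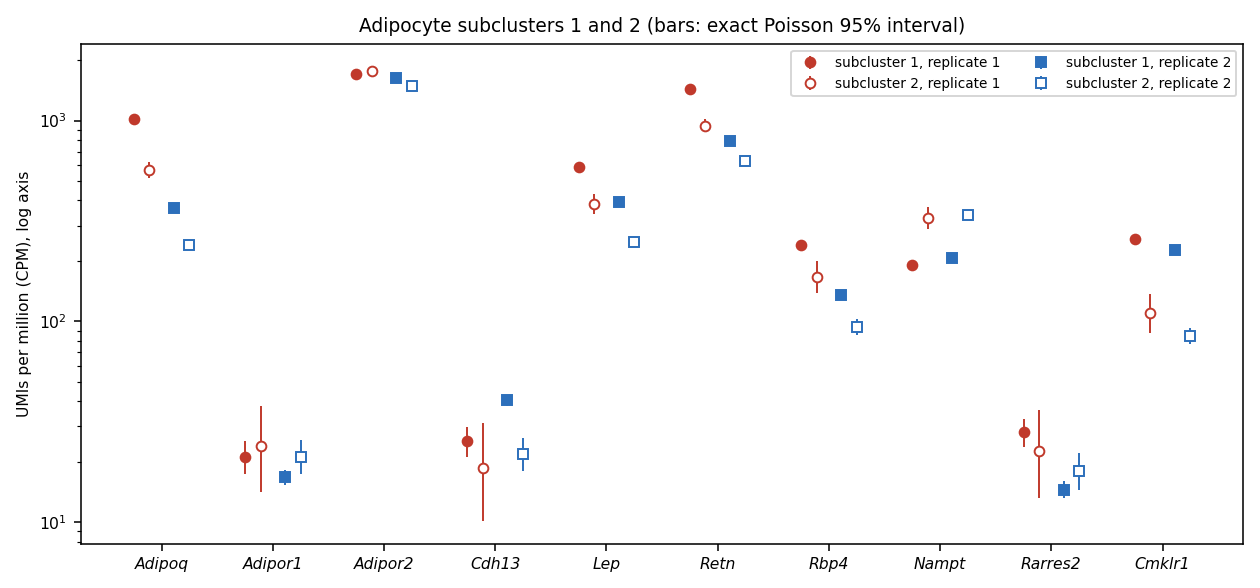
CPM (vertical log axis) of the 10 genes in adipocyte subclusters 1 (filled) and 2 (open) of each library, with exact Poisson 95% intervals as bars. Cmklr1 is higher in subcluster 1, at 256 and 226 CPM, than in subcluster 2, and Nampt is higher in subcluster 2, at 329 and 338 CPM.

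The genes whose levels were most like those of each member over the 12 sums of type and library were found by Pearson's r of log2(CPM + 1), among 11664 genes with a mean of at least 10 CPM. The 12 points come from 2 mice and share library, depth and free RNA, so r is a description. Nearest to Adipoq were Hp (0.978), Cfd (0.975) and Aldoa (0.969), to Retn Fasn (0.986), Thrsp (0.982) and Phlda3 (0.973), and to Rbp4 Scd2 (0.961), Pccb (0.959) and 1700037H04Rik (0.959). Nearest to Lep were Cidec (0.973), Plin1 (0.970) and Ces1d (0.965), and to Adipor2 Lpin1 (0.992), Hk2 (0.991) and Adrb3 (0.988). None of these 15 genes was among the 3 nearest of more than 1 member.

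Nampt had lower values, with Ugp2 (0.894), Slc25a51 (0.891) and Hibadh (0.891). Nearest to Cdh13 were Tead4 (0.969), Myo10 (0.950) and Mecom (0.947), to Rarres2 Slc44a1 (0.954), Gas1 (0.952) and Flnc (0.950), to Cmklr1 Gpaa1 (0.953), Gda (0.923) and Tmem170b (0.921), and to Adipor1 Fam3c (0.922), Rps28 (0.920) and Junb (0.919).

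Around the 10 genes, 65 other genes of the pathway were listed, of which 63 were in the files and 51 could be tested. In adipocyte-like nuclei 18 of these were higher, among them the adipocyte marker Pparg, 13 lower and 20 did not pass, with a median log2 fold change of 0.21. Of all 15084 genes 29.5% were higher and 30.2% lower, so the shares of the list lay near those of all genes, and its groups are described only. Each gene named here was higher in its highest type in 2 of 2 libraries, except Foxo1, whose unscaled CPM was higher in 1 of 2. Of 18 other adipokine genes tested 6 were higher and 8 lower in adipocyte-like nuclei, beside 29.5% and 30.2% of all genes. Cfd, which encodes adipsin, had 4556 and 1294 CPM in adipocyte-like and 5468 and 4530 CPM in endothelial-like nuclei (log2 fold change 2.05 in the second, edgeR adjusted p = 3.5e-16), the same order as Adipoq. Whether the endothelial-like level of Cfd rested on the 184 nuclei described above, as that of Adipoq did, was not tested. Nrg4, a secreted ligand of brown fat, was highest in adipocyte-like nuclei at 849 and 1276 CPM (2.86, adjusted p = 1.5e-23). Retnla, a relative of Retn, was highest in immune-like nuclei at 4274 and 2749.8 CPM (6.08, edgeR adjusted p = 2.7e-42), as was the secreted factor Metrnl at 247 and 97.3 CPM (2.19). C1qtnf7, a relative of Adipoq, was highest in FAP-like nuclei at 232 and 263 CPM (3.27, edgeR adjusted p = 2.8e-24), and Angptl2 in smooth muscle-like nuclei at 385 and 169 CPM (1.83).

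None of the 7 tested receptor genes of other adipokines was higher in adipocyte-like nuclei and 3 were lower, beside 29.5% and 30.2% of all genes. Lepr, the leptin receptor, was highest in smooth muscle-like nuclei at 66.4 and 109.9 CPM (2.95, edgeR adjusted p = 1.7e-09). The ligand and receptor genes of leptin were thus high in different types, as those of chemerin mostly were. Tlr4 and Cap1, both described as resistin receptors, were highest in FAP-like nuclei at 97.5 and 79.2 CPM and in immune-like nuclei at 133 and 78.1 CPM. Aplnr, the apelin receptor, was highest in endothelial-like nuclei at 86.7 and 24.8 CPM.

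Downstream of the adiponectin receptors 6 of 9 signalling genes were higher in adipocyte-like nuclei and none was lower, with a median of 0.86, beside 29.5% and 30.2% of all genes. Among them were Prkaa2, a catalytic subunit of AMPK (59.5 and 85.5 CPM, log2 fold change 1.48, edgeR adjusted p = 4.6e-10), its upstream kinase Stk11 (115 and 102 CPM, 0.84), and Ppara and Ppargc1a, regulators of fatty acid oxidation (59.1 and 131 CPM, 1.85, and 71.1 and 104 CPM, 1.99). Camkk2 was highest in immune-like nuclei at 81.7 and 104 CPM, with a close 78.0 and 102.5 CPM in adipocyte-like nuclei. Of 4 genes for the assembly and secretion of adiponectin none was higher in adipocyte-like nuclei and 1 was lower, beside 29.5% and 30.2% of all genes. P4hb, a disulfide isomerase, was highest in FAP-like nuclei at 215 and 107 CPM.

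In the receptor family of Adipor1 and Adipor2, 2 of 8 other genes were higher in adipocyte-like nuclei, beside 29.5% of all genes: Mmd at 822 and 543 CPM (log2 fold change 1.91, edgeR adjusted p = 8.3e-18) and Paqr9 at 122 and 68.8 CPM (1.98, adjusted p = 1.2e-13). Mmd2 was highest in mesothelial-like nuclei at 13.9 and 10.7 CPM. Of 5 regulators of the adipokine genes 4 were higher in adipocyte-like nuclei, beside 29.5% of all genes, but this count holds Pparg, a marker used in naming the clusters. Pparg, the master regulator of fat cells, reached 3909.7 and 4493 CPM (2.53). It was also among the 9 adipocyte markers that named the clusters, so its higher level is no separate result. Srebf1, a regulator of lipid synthesis, reached 1825 and 892 CPM (1.97, edgeR adjusted p = 2.4e-18), and Foxo1 130.2 and 287 CPM (0.90, adjusted p = 3.0e-06). Cebpa was highest in endothelial-like nuclei at 273 and 199.8 CPM, beside 254 and 90.3 CPM in adipocyte-like nuclei, and Cebpb in immune-like nuclei at 389 and 112 CPM. The part of the 184 nuclei described above in the endothelial-like level of Cebpa was not tested.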

How the data were processed

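Single-nucleus RNA sequencing was taken from the 2 VAT young libraries. The authors used CeleScope on GRCm39, with version and annotation not stated, and deposited counts of UMIs per gene and nucleus, counts of reads and UMIs per barcode, and UMI saturation as a percent, which was 65.79% in replicate 1 and 52.77% in replicate 2. The 10 genes and all lists were chosen with earlier results of these data known. Nuclei were filtered by the limits that the study states, which kept more nuclei of each library than the study reports. Counts were log-normalised, and 1000 variable genes without the 10 genes, the pathway list and the reference list were reduced to 30 principal components, joined by Harmony (written in numpy 2.4.6), and clustered by Leiden (leidenalg 0.10.2, igraph 0.11.9, 20 neighbours, resolution 0.1). A marker counted at a log2 fold change of at least 1 against the rest and detection in at least 5% of nuclei. Clusters took the name of the type with the largest share of its own markers, at least 3 markers and a share of 0.5. They stayed unnamed where a rival type reached a share of 0.75, a limit set after the clusters were seen. Scrublet (scanpy 1.11.5) called 1 nucleus a doublet in each library, so no nucleus was removed, and an alternative removed the 6% with the highest scores. UMIs were summed per library and type with at least 20 nuclei in each library, and tested with edgeR 4.0.16 in R 4.3.3 (TMM, filterByExpr, quasi-likelihood F test, Benjamini-Hochberg adjustment, library as block, 12 sums, 5 residual degrees of freedom). The study tested single nuclei, which are not replicates of a mouse. Since clusters came from the same nuclei, p-values describe how far these clusters lie apart. Adipocyte subclusters used 16 components. DESeq2 1.42.0 was an alternative, with no filter, no block, a mitochondrial limit of 5%, resolution 0.3, 15 components, no integration and each library alone. The test was checked on simulated data. Named pathway genes were those that passed in the type where they were highest, at most 6 in a group by mean CPM, and the 3 most similar genes of each of the 10. Left-out subclusters were those with at least 7 of 9 adipocyte markers that held a minority of their type, and larger ones with such markers, in endothelial-like and smooth muscle-like nuclei, were kept. Python 3.11.15, scipy 1.17.1, pandas 2.3.3, scikit-learn 1.9.0 and matplotlib 3.10.9 were used.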

Additional observations from a re-analysis of the deposited data

How the results depend on the processing

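The count of 7 genes higher in adipocyte-like nuclei was 7 in every alternative run, and the count of 6 above the adipocyte reference, of which 3 genes restate the adipocyte contrast, lay between 5 and 8. The count of 7 genes that differed between adipocyte subclusters was 4 with DESeq2 and 4 with the highest doublet scores removed. It was 4 with the 5% mitochondrial limit, 4 with no filter and 0 without the library block. Without the block edgeR gave 1130 of all genes at an unadjusted p under 0.05 and 58 at an adjusted p under 0.05. Without integration 3 genes passed, in subclusters that did not test the same split. Of 120 values of the adipocyte contrast under the alternatives, 99 kept direction and side of the threshold and 4 no longer passed (Adipor1). Another 17, from single libraries with no test, moved by more than the spread, and 0 changed sign. Values counted as moved, here and below, set an unscaled single-library difference beside the TMM-scaled fit. They thus differ from it in scale as well as in library, and the part of each was not tested. Of 120 values in the type of highest mean, 96 kept both, 11 no longer passed, 10 moved and 3 changed sign, all in endothelial-like nuclei: Retn at resolution 0.3 (-0.017, adjusted p = 0.978), and Rbp4 at resolution 0.3 (-0.52, adjusted p = 0.218) and without the 184 nuclei (-0.38). Adipoq there was 0.10 at resolution 0.3 (adjusted p = 0.818) and 1.49 without the block (adjusted p = 0.0847), and Adipor1 in immune-like nuclei no longer passed at resolution 0.3, the 5% limit, no filter or no block (0.33, 0.23, 0.66 and 0.85). The cause was not tested. Of calls in the adipocyte contrast 49.4% were higher, but 31.9% with DESeq2, 67.3% with no filter and 62.8% with 15 components, and the median of all genes moved from 0.00 to -0.29, 0.33 and 0.18, and to -0.11 without integration. Relative to the median under each of these alternatives the 7 and 3 genes kept their directions. The 5% limit left too few smooth muscle-like nuclei to test. With 2 mice, both young, no value extends to age or depot, and 25 smooth muscle-like nuclei in replicate 1 limit that type.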
